A study of Homo sapiens with 4 samples.

Results

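The genes described here encode enzymes that remove peroxides and superoxide, enzymes that couple glutathione to reactive compounds, and the selenoproteins. Membership was set by gene symbol, with no measured value in the rule, as the glutathione peroxidases, peroxiredoxins, glutathione transferases, microsomal glutathione transferases, SELENO selenoproteins, thioredoxins, superoxide dismutases, *CAT*, *TXNIP*, *TXNRD2* and *TXNRD3*, leaving out *GPX4* and *TXNRD1*. The rule found 55 of the 28278 genes in the count table. RNA sequencing (RNA-seq) was performed on cells labelled HepG2, a human hepatocellular carcinoma cell line, in 2 control and 2 sgUSP22 libraries. All 4 libraries came from cell populations that stably carried Cas9 from a lentivirus and that were treated with 10 µM Sorafenib, a multikinase inhibitor, for 24 h. Control cells expressed a control sgRNA, and sgUSP22 cells expressed a sgRNA against *USP22*, the deubiquitinase of the SAGA complex. No library of untreated cells was analysed here, so the values compare the populations under Sorafenib and do not measure the response to the drug. A single *USP22* sgRNA was used, and nothing states that the replicates were separate cultures, so the p-values measure the spread between these libraries.

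Hydrogen peroxide and lipid peroxides are reduced by several parallel systems. Glutathione peroxidases use glutathione, and peroxiredoxins use thioredoxin, which is kept reduced by thioredoxin reductases at the expense of NADPH. Superoxide dismutases produce hydrogen peroxide from superoxide, and catalase breaks hydrogen peroxide down in peroxisomes. Glutathione transferases attach glutathione to electrophiles, among them products of lipid peroxidation, and liver is known for high levels of the alpha class. Selenoproteins carry selenocysteine, which is inserted at an in-frame UGA codon that would otherwise end translation, and ferroptosis, the iron-dependent cell death by lipid peroxidation that Sorafenib can induce, is held back by the selenoprotein GPX4.

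The total counts were between 62030307 and 64728272 per library, and the 55 genes held 0.535% to 0.536% of them in control libraries and 0.486% to 0.499% in sgUSP22 libraries. The targeted gene did not follow the label at the level of its transcript. Counts for *USP22* were 16450 and 16537 in control and 20279 and 20368 in sgUSP22 libraries, a log2 fold change of 0.22 (SE 0.034, adjusted p = 0.000394). In these RNA data every direction below therefore rests on the label. The study reports a check of the knockout by Western blot, at the level of protein, which these counts do not measure. The hepatocyte markers were close to absent. Of 20 such genes, 11 were listed at 0 in all 4 libraries, including *ALB*, *APOA1*, *APOB* and *TTR*, no library had more than 19 counts for any of them, and their summed level in CPM (counts scaled to the library total after TMM normalisation) was 0.443 to 0.561 CPM in control and 0.48 to 0.913 CPM in sgUSP22 libraries. The 6 mesenchymal markers summed to 1650 to 1660 CPM in control and 1450 to 1480 CPM in sgUSP22 libraries. Among them *VIM* had 52054 to 66580 counts, *TWIST1* 675 to 1016 and *PDGFRB* 266 to 551, all with fewer counts in sgUSP22 libraries. *COL3A1* had 30410 to 37872 counts and *COL1A1* 3426 to 4125, both with more counts in sgUSP22 libraries. *COL1A2* was listed at 0 in all but 1 library. The 4 endothelial markers did not exceed 0.529 CPM in sum in any library, and the 5 blood markers did not exceed 0.201 CPM. The defining markers of the labelled cell type were thus missing, and whether this bears on the levels below was not tested. In bulk RNA, fewer cells that express a gene and less of its RNA per cell cannot be told apart.

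The codon for selenocysteine lies at different places in these genes, and its context is shown for the members that carry it and rose or fell. In GENCODE v44 (hg38), 18 of the 55 genes have an annotated selenocysteine codon. Each sequence below is read 5′ to 3′ from the coding sequence of the MANE Select transcript, with the selenocysteine codon in capitals.
GPX1: gtggcgtccctcTGAggcaccacggtc
SELENOH: cattgcactagcTGAcgcgtctatggg
SELENON: ccctggctcaatTGAtcctcctgcctc
SELENOW: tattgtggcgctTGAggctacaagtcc
SELENOO: ctgtgcgtgacaTGAtcttcg
TXNRD2: gtgacaggctgcTGAggg
TXNRD3: cagaaaggctgcTGAggc
SELENOS: tcatctggcggaTGAggc
SELENOT: atttgtgtttccTGAggttataggcgg
SELENOI: ccaaactcagatTGActaggaatggaa
The first of these codons is codon 49 of 203 in *GPX1*, 44 of 122 in *SELENOH*, 13 of 87 in *SELENOW* and 49 of 195 in *SELENOT*. It is codon 127 of 590 in *SELENON*, the lone gene of this set for which 2 such codons are annotated, and its line shows the first. In the other genes the codon lies at or near the end, at codon 667 of 669 in *SELENOO*, 523 of 524 in *TXNRD2*, 642 of 643 in *TXNRD3*, 188 of 189 in *SELENOS* and 387 of 397 in *SELENOI*. In both reductases and in *SELENOS* the codon is the one before the last, so that their lines are shorter.

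Counts were tested between the groups with edgeR (quasi-likelihood), and p-values were adjusted by the Benjamini-Hochberg method over all 15150 genes tested, 43 of them members. A gene is said to have risen or fallen where its adjusted p was below 0.05, and to have been called where the fold change was also at least 1.5. Of 13 tested cytosolic glutathione transferases 11 were lower in the libraries labelled sgUSP22, as was *GPX1*. *CAT*, *GPX8* and the microsomal transferases were higher, each by less than 1.5-fold. In all, 8 of the 43 members were called lower, or 18.6%, beside 7.25% of all genes tested. These were *GPX1*, *GSTM1*, *GSTM2*, *GSTM4*, *GSTM5*, *GSTO1*, *GSTO2* and *GSTA4*. Without the *GSTA*, *GSTM* and *GSTT* genes, 3 of 35 tested members were called lower, or 8.57%, near the share of all genes tested. By edgeR's test 0 members were called higher, beside 8.88% of all genes, and DESeq2 also called 0 higher, although 10 members had a positive fold change with an unadjusted p below 0.05. Without the fold change threshold 24 members fell and 9 rose, beside 25.8% and 26.8% of all genes (52.5% in either direction), and 10 had an adjusted p of 0.05 or more. The median log2 fold change was -0.24 over the members and 0.000913 over all genes tested. The libraries of the groups did not overlap for 11 higher and 27 lower members, or 88.4% of those tested, beside 38.3% higher, 37.6% lower and 75.9% in all over all genes tested.

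**Figure D1:**
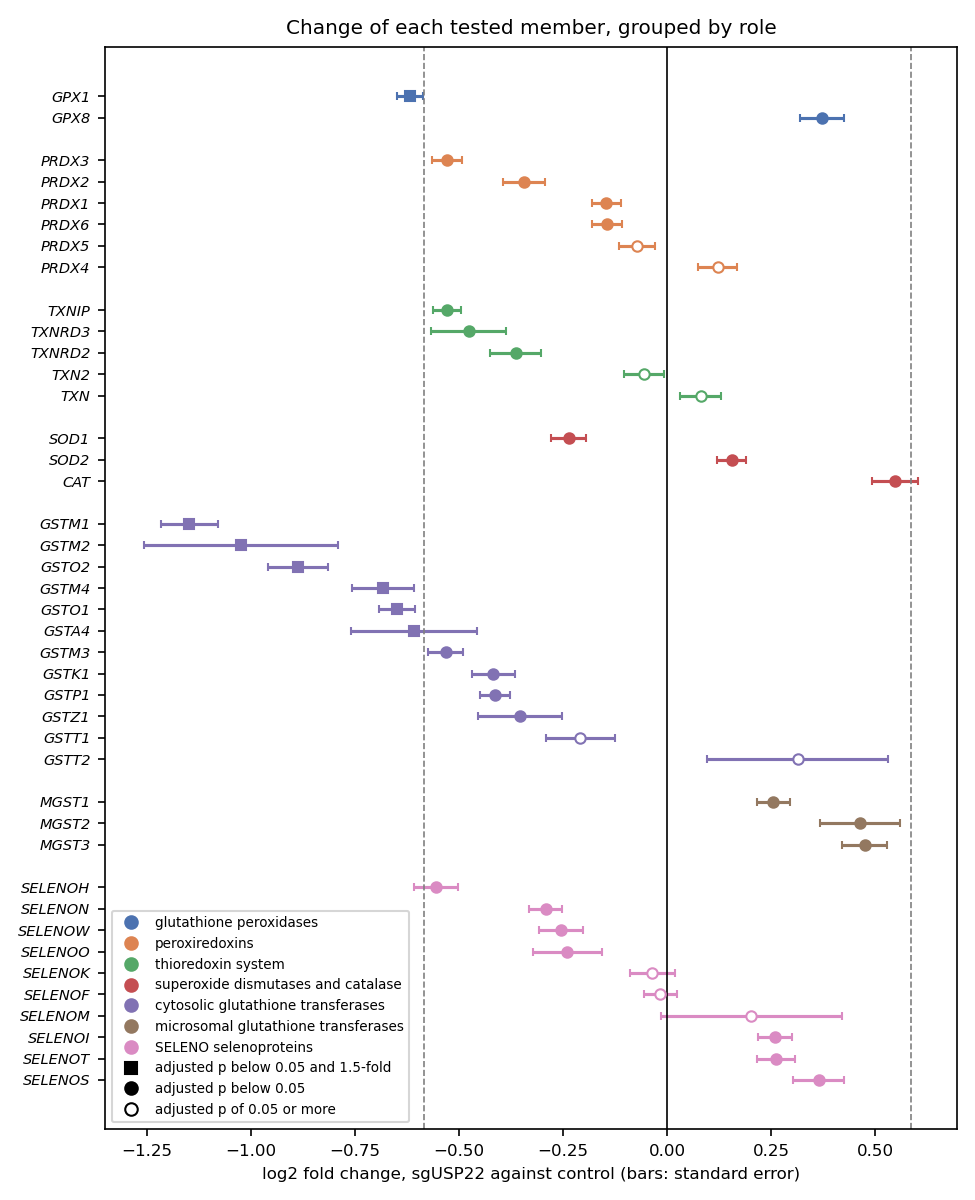
Each row is a tested member and the horizontal axis is its log2 fold change in sgUSP22 against control libraries, with the standard error as a bar and dashed lines at 1.5-fold. Colours give the role of the gene, squares were called at an adjusted p below 0.05 and 1.5-fold, filled circles passed the adjusted p alone and open circles did not; *GSTM5* and *SELENOP*, which had few counts, are not drawn. The squares lie on the lower side, from *GSTA4* at -0.61 to *GSTM1* at -1.15, and *CAT* at 0.55 is the farthest to the right.

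Members not tested numbered 12. Of these, 10 were listed at 0 in all 4 libraries: the alpha class transferases *GSTA1*, *GSTA2*, *GSTA3* and *GSTA5*, the theta class gene *GSTT4*, the peroxidases *GPX5*, *GPX6* and *GPX7*, the selenoprotein gene *SELENOV* and the extracellular superoxide dismutase *SOD3*. For a gene at 0 the upper limit is 3 counts, which corresponds to 0.0457 to 0.0492 CPM across the libraries and reflects counting error alone. *GPX2*, a peroxidase of the gut epithelium, had 4 counts in sgUSP22 replicate 2 and 0 elsewhere. *GPX3*, which encodes the plasma peroxidase, had 2 and 4 counts in control libraries and 11 and 3 in sgUSP22 libraries. *GSTA1* and *GSTA2*, which are abundant in liver, were thus at 0. *SELENOP*, which encodes the selenium carrier of plasma, had 0 and 32 counts in control and 25 and 20 counts in sgUSP22 libraries. Its control libraries lie on either side of the sgUSP22 libraries, and the sign of its change turned when control replicate 1 was left out and it was called higher when control replicate 2 was left out, so no direction is given for it.

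Among the glutathione peroxidases, 2 of 7 could be tested and they moved in opposite directions. *GPX1* encodes the main cytosolic peroxidase and is a selenoprotein. It had 462 and 461 CPM in control libraries and 302 and 299 CPM in the libraries labelled sgUSP22. Both sgUSP22 libraries lay far below both control libraries, and the replicates lay close together. The log2 fold change was -0.62 (SE 0.032, adjusted p = 4.28e-07). It stayed lower with every setting tried, but fell short of 1.5-fold with library size alone (-0.57) and with GC content and length trends removed (-0.40), an alternative in which the dependence of each library's counts on the GC content and length of the genes was taken out. *GPX8*, a membrane protein of the endoplasmic reticulum that carries cysteine in place of selenocysteine, had 65.9 and 60.1 CPM in control and 80.3 and 82.8 CPM in sgUSP22 libraries, with no overlap. Its log2 fold change was 0.37 (SE 0.053, adjusted p = 0.000242). The summed level of the peroxidase genes was 521 to 528 CPM in control and 382 to 383 CPM in sgUSP22 libraries.

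All 6 peroxiredoxin genes were expressed, of which 4 fell and the others did not pass the test, with a median log2 fold change of -0.15. Of all genes tested, 25.8% fell and 26.8% rose. The typical two-cysteine peroxiredoxins are PRDX1 and PRDX2 in the cytosol, PRDX3 in mitochondria and PRDX4 in the endoplasmic reticulum. *PRDX3* showed the largest change of the family, with 195 and 193 CPM in control and 136 and 133 CPM in sgUSP22 libraries. The groups were well apart (log2 fold change -0.53, SE 0.036, adjusted p = 2.24e-06), although the change was under 1.5-fold. *PRDX2* fell from 198.5 and 213 CPM to 169 and 155 CPM (log2 fold change -0.34, SE 0.051, adjusted p = 0.000307), and its value was -0.19 with GC content and length trends removed. *PRDX1*, with 711 and 703 CPM in control libraries, had 657 and 621 CPM in sgUSP22 libraries. Its log2 fold change of -0.15 (SE 0.035, adjusted p = 0.00585) was small and no longer passed the test without sgUSP22 replicate 2 (adjusted p = 0.0571). *PRDX6*, a one-cysteine peroxiredoxin that also acts on phospholipids, fell from 475 and 468 CPM to 437 and 416 CPM (-0.14, SE 0.036, adjusted p = 0.00669) and also failed the test without that library (adjusted p = 0.0597). With library size alone both were smaller, at -0.094 for *PRDX1* and -0.092 for *PRDX6*. *PRDX4* had a log2 fold change of 0.12 (adjusted p = 0.0544) and *PRDX5* of -0.073 (adjusted p = 0.183), and neither value was stable. That of *PRDX5* was 0.11 (adjusted p = 0.0395) with GC content and length trends removed, -0.15 (adjusted p = 0.0212) without sgUSP22 replicate 1 and -0.016 (adjusted p = 0.807) without sgUSP22 replicate 2. *PRDX5* had 236 and 234 CPM in control and 232 and 214 CPM in sgUSP22 libraries. *PRDX4* had 171 and 173 CPM in control and 196 and 178 CPM in sgUSP22 libraries, and its value ranged from 0.038 (adjusted p = 0.553) without sgUSP22 replicate 1 to 0.20 (adjusted p = 0.00282) with GC content and length trends removed. The summed level of the family was 1984 to 1987 CPM in control and 1717 to 1828 CPM in sgUSP22 libraries.

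In the thioredoxin system, 3 of 5 members fell, beside 25.8% of all genes tested. The others did not pass the test, and the median log2 fold change was -0.36. *TXNIP* encodes the thioredoxin-interacting protein, an arrestin that binds reduced thioredoxin and limits glucose uptake. It had 297 and 303 CPM in control and 208 and 208 CPM in sgUSP22 libraries. The replicates of each group lay close together and the groups did not overlap (log2 fold change -0.53, SE 0.034, adjusted p = 1.52e-06). *TXNRD2*, the mitochondrial thioredoxin reductase, went from 44.6 and 45.9 CPM to 36.7 and 33.6 CPM (log2 fold change -0.36, SE 0.062, adjusted p = 0.000752). *TXNRD3*, a reductase with an added glutaredoxin domain, went from 17.0 and 17.6 CPM to 12.8 and 12.1 CPM (log2 fold change -0.48, SE 0.090, adjusted p = 0.00145). The cytosolic reductase *TXNRD1*, which is no member, went the other way and had a log2 fold change of 0.47 (SE 0.030, adjusted p = 1.54e-06). The thioredoxins themselves did not pass the test. *TXN* had 259.4 and 259.9 CPM in control and 289.6 and 259.5 CPM in sgUSP22 libraries, so the groups overlapped, although it passed without sgUSP22 replicate 2 (0.16, adjusted p = 0.0136) and with library size alone (0.13, adjusted p = 0.0361). Mitochondrial *TXN2* had a log2 fold change of -0.056 (adjusted p = 0.365).

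*CAT* showed the largest rise of all members with more than a few counts. It had 37.0 and 39.1 CPM in control and 57.0 and 54.2 CPM in the libraries labelled sgUSP22, a log2 fold change of 0.55 (SE 0.056, adjusted p = 2.88e-05). Both sgUSP22 libraries were higher than both control libraries, and the fold change of 1.46 lay just under the threshold of 1.5. With library size alone its log2 fold change was 0.60 and it was called, as it was without control replicate 2. *SOD1*, the cytosolic copper-zinc dismutase, fell from 154 and 161 CPM to 138 and 130.4 CPM (log2 fold change -0.24, SE 0.042, adjusted p = 0.00104). Its value was -0.10 (adjusted p = 0.0469) with GC content and length trends removed, and it no longer passed when a replicate block was added to that fit (adjusted p = 0.059). *SOD2*, the mitochondrial manganese dismutase, had 408 and 391 CPM in control and 444 and 445 CPM in sgUSP22 libraries. Its log2 fold change of 0.16 (SE 0.034, adjusted p = 0.0037) became -0.012 (adjusted p = 0.796) with GC content and length trends removed.

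**Figure D2:**
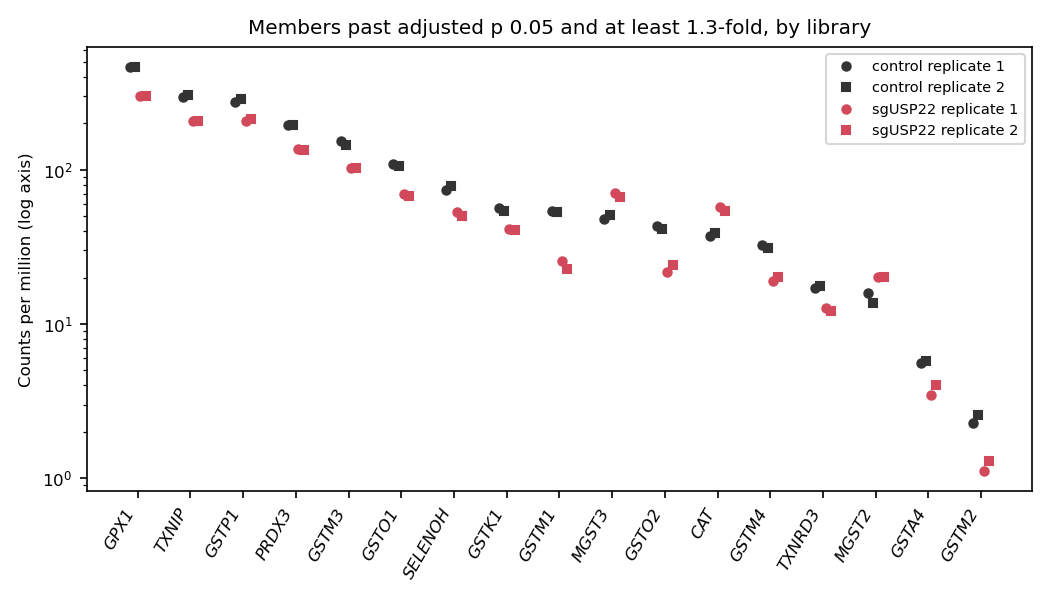
Each column is a member that rose or fell by 1.3-fold or more, ordered by its control level, and the vertical axis gives CPM on a log axis, with black points for the control and red points for the sgUSP22 libraries (circles replicate 1, squares replicate 2). *GSTM5*, at 0 in both sgUSP22 libraries, cannot be drawn on this axis. The groups are apart in every column, and *CAT*, *MGST2* and *MGST3* are the columns in which the red points lie above.

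The cytosolic glutathione transferases, with which the mitochondrial and peroxisomal *GSTK1* is counted, were mostly lower in the libraries labelled sgUSP22. Of 18 genes 13 were tested and 11 fell, beside 25.8% of all genes tested. Of the 13, 7 were called lower, or 53.8%, beside 7.25% of all genes, and the median log2 fold change was -0.61. The called genes include *GSTM1*, *GSTM2*, *GSTM4* and *GSTM5*, which can share reads, and *GSTO1* and *GSTO2*, which lie side by side on chromosome 10. The summed level of the cytosolic transferases was 767 to 782 CPM in control and 534 to 537 CPM in sgUSP22 libraries. The median lay between -0.63 and -0.55 with each library left out.

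The mu class lies in a cluster on chromosome 1 of hg38, from *GSTM4*, which starts at 109656099, to *GSTM5*, which ends at 109775428 and overlaps *GSTM3* on the other strand, so that reads of this pair cannot be told apart where strand was not used. All 5 genes fell. *GSTM1* had 53.7 and 53.5 CPM in control and 25.7 and 22.7 CPM in the libraries labelled sgUSP22, less than in any control library by a wide margin (log2 fold change -1.15, SE 0.069, adjusted p = 9.28e-07). It was the largest change among members with more than a few counts. *GSTM4* went from 32.3 and 30.9 CPM to 19.1 and 20.2 CPM (log2 fold change -0.68, SE 0.074, adjusted p = 4.1e-05), and *GSTM2* from 2.3 and 2.58 CPM to 1.11 and 1.29 CPM (log2 fold change -1.02, SE 0.23, adjusted p = 0.00443). *GSTM5* counts were 11 and 14 in control and 0 in either sgUSP22 library, at least 4.39-fold lower when set against a floor of 3 counts per library (adjusted p = 0.011), and without either control library its counts were too few to be tested. *GSTM3*, the most distant gene of the class in sequence, had the highest level per length of the 5 over merged exons but not over the longest transcript, where *GSTM1* was higher, with 153 and 144 CPM in control and 103 and 102 CPM in sgUSP22 libraries (log2 fold change -0.53, SE 0.042, adjusted p = 5.22e-06). The coding sequences of *GSTM1*, *GSTM2*, *GSTM4* and *GSTM5* were 87.5% to 92.2% identical to each other, and those to *GSTM3* 70.1% to 72.6%. Reads can therefore be split between the first 4 genes, and *GSTM2* overlaps *GSTM1* in the annotation, so their single values are uncertain. Their summed counts, an alternative chosen after the data were seen, were 5391 and 5440 in control and 3017 and 2852 in sgUSP22 libraries, a log2 fold change of -0.96 (SE 0.046, adjusted p = 2.63e-07). Among the 16 tested genes next to the cluster, 8 on each side, 2 were called lower and 1 higher, and their median log2 fold change was -0.0061. Of all genes tested, 7.25% were called lower and 8.88% higher. The genes called were *CSF1* (-0.66), *SYPL2* (-1.19) and *CYB561D1* (0.82), named after their values were seen.

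*GSTO1* and *GSTO2*, the omega class transferases that reduce dehydroascorbate and arsenic compounds, lie side by side on the long arm of chromosome 10 of hg38, at 104235356 to 104267459 and 104268873 to 104304950. *GSTO1* had 109 and 105 CPM in control and 69.2 and 67.2 CPM in sgUSP22 libraries (log2 fold change -0.65, SE 0.043, adjusted p = 1.72e-06). *GSTO2* had 43.3 and 41.5 CPM in control and 21.7 and 24.1 CPM in sgUSP22 libraries (log2 fold change -0.89, SE 0.071, adjusted p = 5.93e-06). The groups did not overlap for either gene, and both passed the test with each library left out. The genes around them were mostly lower as well. Of 16 tested neighbours, 4 were called lower and 1 higher, with a median log2 fold change of -0.41. Of all genes tested, 7.25% were called lower and 8.88% higher. Around *PRDX3*, at 119167720 to 119178812 of the same arm, 4 of 16 neighbours were called lower, with a median of -0.51. The long arm of chromosome 10, taken as genes starting past 40 Mb, had 431 tested genes, and 127 of them (29.5%) were called lower, and their median was -0.41, against 6.6% and 0.011 for all other genes. The 40 Mb boundary came from an earlier look at these data. The changes of these members thus cannot be told apart from that of their chromosome arm. Without them, 6 of 40 members were called lower, or 15%, and the median was -0.18.

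**Figure D3:**
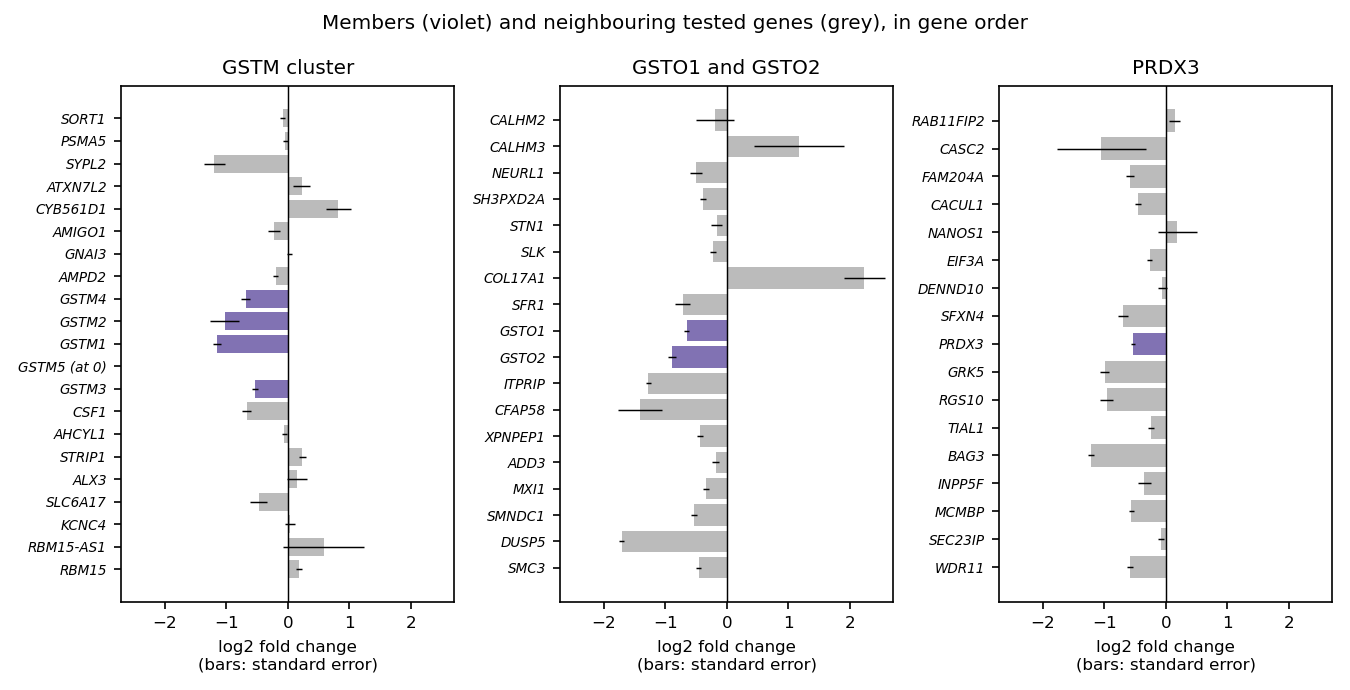
The panels show, in gene order along the chromosome, the members (violet) and 8 tested genes on each side (grey) for the *GSTM* cluster, for *GSTO1* and *GSTO2*, and for *PRDX3*; the horizontal axis is the log2 fold change in sgUSP22 against control libraries with standard errors. No bar is drawn for *GSTM5*, which was at 0 in sgUSP22 libraries. The grey bars scatter around 0 next to the *GSTM* cluster (median -0.0061) and lie mostly to the left next to *GSTO1*, *GSTO2* (-0.41) and *PRDX3* (-0.51).

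Of the remaining transferases, 4 fell. *GSTP1*, the pi class enzyme and the transferase with the highest level per length, had 275 and 285 CPM in control and 208 and 213 CPM in sgUSP22 libraries. The groups were apart (log2 fold change -0.41, SE 0.036, adjusted p = 1.06e-05), and the value was -0.21 with GC content and length trends removed. *GSTK1*, the kappa class enzyme of mitochondria and peroxisomes, went from 56.2 and 53.9 CPM to 41.6 and 40.8 CPM (log2 fold change -0.42, SE 0.052, adjusted p = 0.000101). *GSTA4*, the alpha class enzyme that acts on hydroxyalkenals, products of lipid peroxidation, was the lone alpha gene with counts. It had 5.62 and 5.75 CPM in control and 3.44 and 4.03 CPM in sgUSP22 libraries (log2 fold change -0.61, SE 0.15, adjusted p = 0.00704), and it was not called without sgUSP22 replicate 1 (adjusted p = 0.0523) or with library size alone (-0.56, under 1.5-fold). *GSTZ1*, which takes part in tyrosine breakdown, had a log2 fold change of -0.35 (SE 0.10, adjusted p = 0.0141) that became -0.22 (adjusted p = 0.139) without control replicate 1, and its adjusted p was 0.0552 with no count filter. The theta class genes did not pass the test. *GSTT1* had 24.8 and 22.7 CPM in control and 21.2 and 19.9 CPM in sgUSP22 libraries, a log2 fold change of -0.21 (adjusted p = 0.0579) that was -0.27 (adjusted p = 0.0391) without sgUSP22 replicate 1, and *GSTT2*, with 229 and 198 counts in control and 223 and 337 counts in sgUSP22 libraries, overlapped between the groups. *GSTT2* can share reads with its copy *GSTT2B*, and their sum, an alternative chosen after the data were seen, had a log2 fold change of 0.40 (SE 0.12, adjusted p = 0.0161).

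The 3 microsomal glutathione transferases, membrane proteins unrelated in sequence to the cytosolic enzymes, all rose. *MGST1*, which protects membranes from lipid peroxides, had 141 and 139 CPM in control and 171 and 163 CPM in sgUSP22 libraries (log2 fold change 0.26, SE 0.039, adjusted p = 0.000377). *MGST2*, which can also form a leukotriene, went from 15.8 and 13.6 CPM to 20.3 and 20.3 CPM (log2 fold change 0.46, SE 0.096, adjusted p = 0.00256). *MGST3* went from 47.8 and 50.8 CPM to 70.6 and 66.5 CPM (log2 fold change 0.47, SE 0.054, adjusted p = 5.49e-05). In each of the 3 genes both sgUSP22 libraries were above both control libraries, and none reached 1.5-fold. Their summed level was 203.6 to 204.5 CPM in control and 250.2 to 261.7 CPM in sgUSP22 libraries. All 3 also passed the test with GC content and length trends removed, where the value of *MGST1* was 0.14.

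Of the 12 SELENO genes, 11 were tested, 4 fell and 3 rose, beside 25.8% and 26.8% of all genes tested. The median log2 fold change was -0.016. All of these changes were under 1.5-fold. *SELENOH*, a nuclear protein with a thioredoxin-like fold, showed the largest fall, from 74.1 and 78.5 CPM in control to 53.5 and 50.4 CPM in sgUSP22 libraries. The groups did not overlap (log2 fold change -0.56, SE 0.052, adjusted p = 1.62e-05), and the gene passed 1.5-fold and was called without control replicate 1 (-0.60) and without sgUSP22 replicate 1 (-0.61). *SELENON*, a reductase of the endoplasmic reticulum needed in muscle, fell from 119 and 122 CPM to 97.2 and 99.7 CPM (-0.29, SE 0.039, adjusted p = 0.00017), and the value was -0.14 with GC content and length trends removed. *SELENOW*, a small cytosolic protein, fell from 63.7 and 63.4 CPM to 55.3 and 51.2 CPM (-0.26, SE 0.052, adjusted p = 0.0023). *SELENOO*, a mitochondrial pseudokinase that transfers AMP, fell from 29.6 and 32.9 CPM to 25.0 and 28.0 CPM (-0.24, SE 0.083, adjusted p = 0.0333), and this was 0.0027 with GC content and length trends removed. It also missed the threshold with DESeq2 (adjusted p = 0.0565), with library size alone, with no count filter, without control replicate 2 and without sgUSP22 replicate 1. *SELENOS*, *SELENOT* and *SELENOI* rose, all membrane proteins of the endoplasmic reticulum or Golgi. *SELENOS*, part of the machinery that returns misfolded proteins to the cytosol, had 39.7 and 36.3 CPM in control and 47.8 and 49.9 CPM in sgUSP22 libraries (log2 fold change 0.36, SE 0.061, adjusted p = 0.000703). *SELENOT* went from 53.9 and 53.9 CPM to 64.8 and 64.5 CPM (0.26, SE 0.046, adjusted p = 0.000892), and *SELENOI*, an ethanolamine phosphotransferase that makes phosphatidylethanolamine, from 108 and 110.2 CPM to 127 and 134 CPM (0.26, SE 0.041, adjusted p = 0.000483). Neither *SELENOT* (0.071, adjusted p = 0.214) nor *SELENOI* (0.044, adjusted p = 0.361) passed the test with GC content and length trends removed. *SELENOF*, which assists protein folding in the endoplasmic reticulum, had the highest level per length of the SELENO genes, with 147 and 155 CPM in control and 149.5 and 149.5 CPM in sgUSP22 libraries. The sgUSP22 values lay between the control values (log2 fold change -0.016, adjusted p = 0.763), although with GC content and length trends removed the value was -0.19 (adjusted p = 0.0028). *SELENOK*, with 46.8 and 46.2 CPM in control and 46.4 and 44.3 CPM in sgUSP22 libraries, also overlapped (-0.035, adjusted p = 0.613), and *SELENOM* had 110 and 108 counts in control and 136 and 129 counts in sgUSP22 libraries (0.20, adjusted p = 0.472). The summed level of the SELENO genes was 684 to 701 CPM in control and 669 to 674 CPM in sgUSP22 libraries.

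Selenocysteine was found in genes of both directions. Among 14 tested members with an annotated selenocysteine codon, 7 fell and 3 rose, with a median log2 fold change of -0.14. Among the 29 tested members without one, 17 fell and 6 rose, with a median of -0.24. Of all genes tested, 25.8% fell and 26.8% rose. Genes of both directions also occurred at either position of the codon. Of those with the codon well before the end, *GPX1*, *SELENOH*, *SELENON* and *SELENOW* fell and *SELENOT* rose. Of those with it at or near the end, *SELENOO*, *TXNRD2* and *TXNRD3* fell and *SELENOS* and *SELENOI* rose. A grouping by compartment was chosen after the values were seen. Of 12 tested members that reside in the endoplasmic reticulum, 7 rose and 1 fell, with a median of 0.26, beside 26.8% and 25.8% of all genes tested. These were *GPX8*, *MGST1*, *MGST2*, *MGST3*, *SELENOS*, *SELENOT* and *SELENOI* on the higher side and *SELENON* on the lower. With GC content and length trends removed 6 rose and 2 fell, not all of them the same genes. *SELENOT* and *SELENOI* no longer passed the test there, while *PRDX4* rose and *SELENOF* fell beside *SELENON*. Of 5 members counted as mitochondrial, *PRDX3*, *TXNRD2* and *SELENOO* fell, *SOD2* rose and *TXN2* did not pass the test. With GC content and length trends removed only *PRDX3* and *TXNRD2* of these passed. *GSTK1*, found in mitochondria and peroxisomes, was not counted here. Its log2 fold change was -0.42, and -0.40 with those trends removed. *PRDX5* was not counted here either, and its values were -0.073, and 0.11 with those trends removed.

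**Figure D4:**
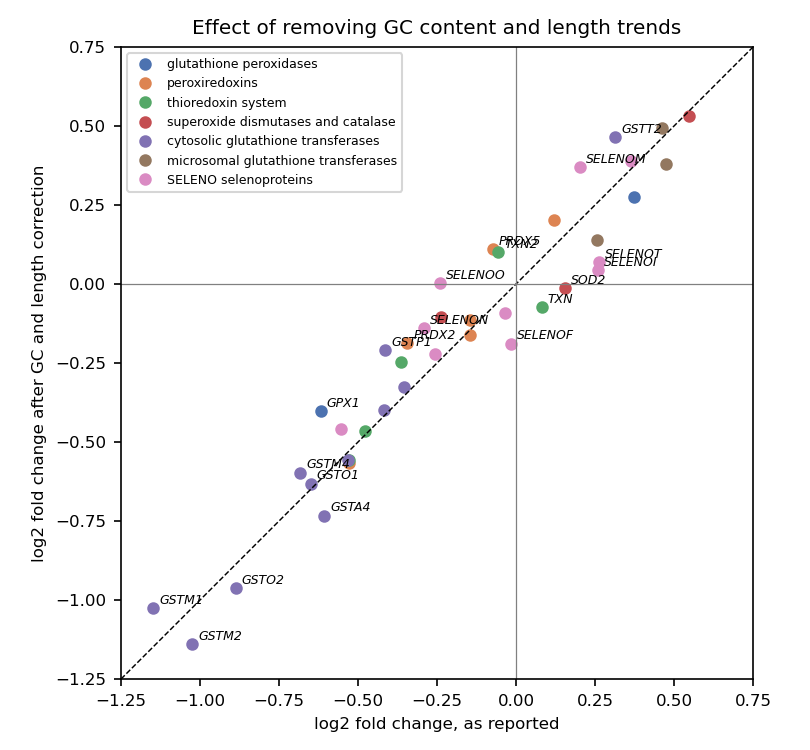
Each point is a tested member, coloured by role, with its log2 fold change as reported on the horizontal axis and after the removal of GC content and length trends on the vertical axis; the dashed line marks equal values, and *GSTM5*, *SELENOP* and *GSTT1* are not drawn. *GPX1* moved from -0.62 to -0.40, *SELENOT* and *SELENOI* came close to 0, while *GSTM1* went from -1.15 to -1.03, *GSTM2* from -1.02 to -1.14 and *GSTO2* from -0.89 to -0.96.

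Levels were compared between members per length, as CPM per kilobase of merged exons in GENCODE v44. *PRDX1* was the highest in both groups, with 420.3 ± 3.54 (SD, n = 2) in control and 380 ± 14.9 (SD, n = 2) in sgUSP22 libraries. *GPX1* was next in control, at 322 ± 0.262 (SD, n = 2), above *PRDX5* at 273 ± 1.24 (SD, n = 2) and *TXN* at 257 ± 0.305 (SD, n = 2). In sgUSP22 libraries *GPX1* ranked 4, at 209.9 ± 1.68 (SD, n = 2), below *TXN* at 272 ± 21.1 (SD, n = 2) and *PRDX5* at 259.5 ± 15.02 (SD, n = 2), and *TXN* and *PRDX5* did not differ beyond their spread. *PRDX6* and *GSTP1* followed in both groups. At the other end, *GSTM2*, *SELENOP* and *GSTM5* lay between 0 and 0.267 CPM per kilobase on average. When the longest transcript was used in place of merged exons, 9 of the 10 highest members were the same genes. No length was available for *GSTT1*, which did not match the annotation used here.

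**Figure D5:**
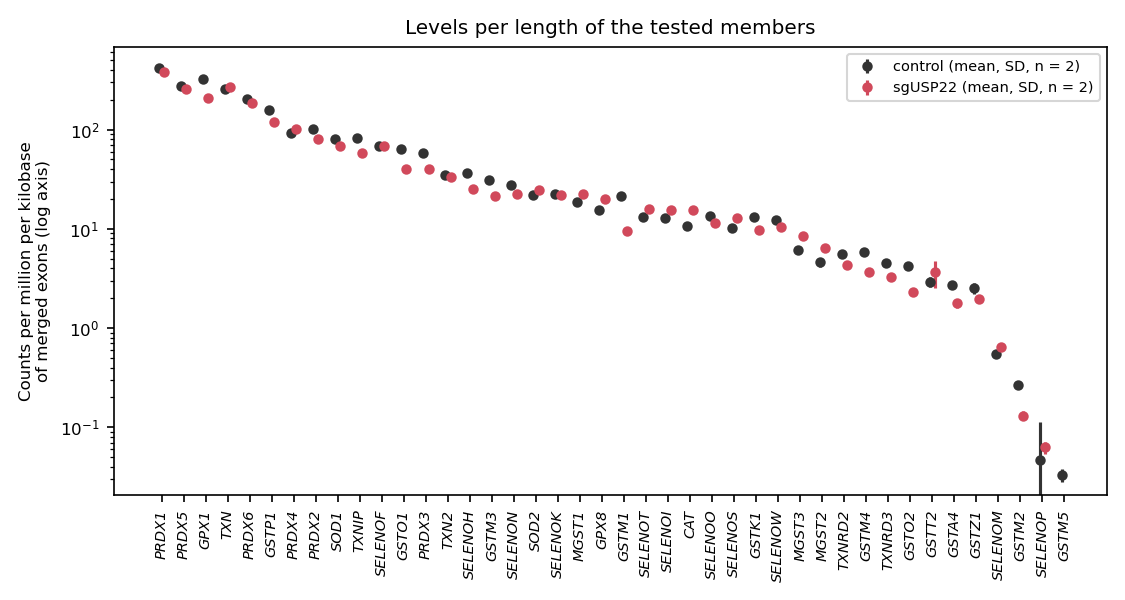
The tested members are ordered by their mean level in CPM per kilobase of merged exons, on a log axis, with black points for control and red points for sgUSP22 libraries (mean with SD, n = 2). *PRDX1* leads at 420.3 in control, the black and red points of *GPX1*, *GSTM1* and *GSTO2* stand apart, and those of *TXN*, *SELENOF* and *SELENOK* nearly coincide; *GSTM5* has no red point because it was listed at 0.

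Genes that supply these enzymes moved in both directions. Of 11 genes for the synthesis and supply of selenoproteins, 5 rose and 4 fell, beside 26.8% and 25.8% of all genes tested. Of the 11, 18.2% were called higher and 18.2% lower, beside 8.88% and 7.25% of all genes. *SEPHS2*, which makes selenophosphate and is itself a selenoprotein, was called higher, with 1721 and 1680 counts in control and 3392 and 3455 counts in sgUSP22 libraries (log2 fold change 0.93, SE 0.058, adjusted p = 1.15e-06), and so was *SECISBP2L* (0.63, SE 0.057, adjusted p = 1.13e-05). *PSTK*, the kinase that acts on seryl-tRNA for selenocysteine, was called lower, with 297 and 267 counts in control and 106 and 129 counts in sgUSP22 libraries (-1.34, SE 0.19, adjusted p = 0.000246), and so was *EEFSEC*, the elongation factor that delivers selenocysteine (-0.64, SE 0.065, adjusted p = 2.76e-05). *PSTK* lies on the long arm of chromosome 10, and its change cannot be told apart from that of the arm. Of 5 tested selenoprotein genes outside the set, *DIO2* (0.74) and *MSRB1* (0.61) were called higher, *TXNRD1* rose and *GPX4* fell by 0.44 on the log2 scale (SE 0.044, adjusted p = 2.39e-05).

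The lists that follow can be set beside all genes tested, of which 26.8% rose and 25.8% fell. Of all genes, 8.88% were called higher and 7.25% lower. Of 16 genes for glutathione synthesis, turnover and NADPH supply, 9 rose and 5 fell, and 31.2% were called higher and 12.5% lower. The largest changes among called genes were those of *GGT5* (-3.89), *CHAC1* (1.77), *GGT7* (1.17) and *GGT1* (1.16), which encode enzymes that cleave glutathione or, for *GGT7*, a relative of them, and *GGT1* can share reads with near-identical copies. Of 18 genes for glutaredoxins, sulfiredoxin and thioredoxin-fold partners, 6 rose and 6 fell. In this list 4 were called higher (22.2%) and 2 lower (11.1%). The largest changes were in *SESN1* (0.98), *GLRX* (0.87), *SESN2* (0.83) and *NXN* (-0.79). Of 7 tested relatives and regulators of *TXNIP*, 4 fell and the others did not pass the test, with *ARRDC2* called lower (-0.62). Of 5 other genes with the fold of glutathione or microsomal transferases, 1 rose and 2 fell, all by less than 1.5-fold. Among 9 genes for sources of superoxide and peroxide and for the copper chaperone of SOD1, *AOX1* was called higher (1.48) and *CYBB* lower (-0.63). The regulator genes *NFE2L2* (0.12, adjusted p = 0.0496) and *KEAP1* (0.17, adjusted p = 0.0154) rose by small amounts.

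Promoters were searched for the core of the antioxidant response element, TGACNNNGC, which NRF2 with small MAF proteins can bind, on both strands of the window from 250 bases before to 50 bases after the start site (RefSeq, GRCh38.p14). The element is of interest here because several transferases are known NRF2 targets. A promoter was at hand for 46 of the 55 genes, 61 in all, and 10 of these promoters held the letters, or 16.4%, against 13.3% of all 35116 promoters. The genes with a match were *GPX2*, *GSTA4*, *GSTM1*, *GSTM5*, *GSTO1*, *GSTP1*, *MGST1*, *SELENOK*, *SELENON* and *SELENOP*. They included genes that fell, such as *GSTM1* and *GSTP1*, as well as *MGST1*, which rose. The promoters of *GSTM1* (chr1:109687567-109687866, plus strand), *GSTM4* of the same cluster (chr1:109655849-109656148, plus strand), which has no match, and *GSTO1* (chr10:104254642-104254941, plus strand), which has 2, are shown because these genes were called lower. Capitals mark the match.
GSTM1: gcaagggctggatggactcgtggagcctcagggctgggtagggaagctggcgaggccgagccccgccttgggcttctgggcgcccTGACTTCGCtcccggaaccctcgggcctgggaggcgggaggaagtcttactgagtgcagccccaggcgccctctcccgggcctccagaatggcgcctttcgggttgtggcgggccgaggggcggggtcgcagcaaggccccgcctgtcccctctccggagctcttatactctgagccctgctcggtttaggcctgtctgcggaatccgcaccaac
GSTM4: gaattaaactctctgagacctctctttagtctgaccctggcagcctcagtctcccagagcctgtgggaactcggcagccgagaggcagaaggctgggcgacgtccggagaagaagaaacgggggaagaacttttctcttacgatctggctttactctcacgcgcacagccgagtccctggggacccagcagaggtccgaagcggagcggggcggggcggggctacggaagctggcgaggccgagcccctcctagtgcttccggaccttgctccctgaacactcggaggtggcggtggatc
GSTO1: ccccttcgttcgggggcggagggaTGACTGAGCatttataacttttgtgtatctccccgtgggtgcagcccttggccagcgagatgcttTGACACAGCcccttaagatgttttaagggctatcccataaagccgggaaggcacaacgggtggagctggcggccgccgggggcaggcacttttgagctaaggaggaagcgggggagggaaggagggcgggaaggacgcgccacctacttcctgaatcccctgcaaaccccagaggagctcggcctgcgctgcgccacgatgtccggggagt
A match of these letters is a description and not a binding site. The E-box CACGTG, which the carbohydrate-response factors and MYC partners can bind, was in 11.5% of the member promoters and 7.26% of all.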

How the data were processed

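Poly(A) RNA was sequenced on a DNBSEQ-G400 instrument. The authors deposited 1 table of raw gene counts for 28278 genes. Per the labels and the study's methods, reads were processed with HISAT2 2.2.1, Samtools 1.6 and StringTie 2.2.1, and the authors tested with DESeq2 1.34.0; the annotation and strand setting are not given in the sources used here, so overlapping and antisense genes cannot be separated.

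Samples were grouped by their labels. Here the deposited counts were filtered with filterByExpr (minimum count 10), scaled by TMM and tested with edgeR 4.0.16 (quasi-likelihood, Benjamini-Hochberg adjustment, limma 3.58.1, R 4.3.3). Genes were called at an adjusted p below 0.05 and at least 1.5-fold. The SE is that of the fitted log2 fold change. CPM values use the total count of each library (62030307 to 64728272) multiplied by its TMM factor, and the floor of 3 counts covers counting error only. Lengths came from GENCODE v44, which matched 54 of the 55 genes, and promoters from RefSeq (GRCh38.p14).

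Members and gene lists were chosen with earlier results of these data known. Library values are given for members called, for the highest member per length of each role, for *PRDX3*, *GSTO1* and *GSTO2*, and for other members where useful; context lists name at most 4 called genes, largest change first, plus *GPX4*, *TXNRD1*, *KEAP1* and *NFE2L2*. Alternatives were DESeq2 1.42.0, RLE factors, library size alone, other count filters, a replicate block, removal of GC content and length trends, other fold thresholds and leaving out each library. Summed copies and compartments were chosen after seeing the data.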

Additional observations from a re-analysis of the deposited data

How the results depend on the processing

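The same 2 replicate numbers occur in both groups, but the deviations of same-numbered libraries correlated at 0.042 across genes, so the numbers were not taken to pair the libraries. With a replicate block, 8 members were called lower, beside 1341 genes higher and 1100 lower. Over all genes, 1345 were called higher and 1098 lower; these became 4057 and 3904 with no fold change threshold and 578 and 428 when tested against 1.5-fold, and lay between 1158 and 1400 and between 995 and 1139 with 1 library left out. Members called higher numbered 0 as reported, 1 (*CAT*) with library size alone, 9 with no fold change threshold, and 0 to 2 with 1 library left out, the 2 without control replicate 2 being *CAT* and *SELENOP*. Members called lower numbered 8 as reported, 24 with no fold change threshold, 2 when tested against 1.5-fold, 3 without the *GSTA*, *GSTM* and *GSTT* genes, 6 without the members on the long arm of chromosome 10, 6 with library size alone (*GPX1* and *GSTA4* lost), and 7 to 8 with 1 library left out, though not always the same genes: *SELENOH* was called without control replicate 1 and without sgUSP22 replicate 1, *GSTM5* was lost without either control library and *GSTA4* without sgUSP22 replicate 1. With library size alone the median of all genes was 0.0532 and that of the members -0.18, and 62.3% of calls were higher, against 55.1%. With GC content and length trends removed, without and with the replicate block, log2 fold changes turned sign for *PRDX5* (0.1098 and 0.109), *SELENOO* (0.0027 and 0.0010), *SOD2* (-0.0122 and -0.0121), *TXN* (-0.074 and -0.076) and *TXN2* (0.1001 and 0.1002). With library size alone they turned for *SELENOF* (0.036) and *SELENOK* (0.017). With 1 library left out the values ran from -0.030 to 0.58 for *GSTT2*, from -0.056 to 0.023 for *SELENOF*, from -0.57 to 7.47 for *SELENOP*, where the upper value is set against a control library at 0 and is no bound, and from -0.013 to 0.16 for *TXN*. *GSTM5* fell under the count filter, and has no value, when either control library was left out. The cause of these changes was not tested. Over the 43 members, 311 of 344 comparisons under other settings and 154 of 170 with 1 library left out kept their direction and their side of the threshold. With 2 libraries per group, a library left alone in its group is assumed to vary like the other group.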
